A study of Mus musculus with 4 samples.

Results

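Lcn2, Nfkbia, Nfkbiz, Socs3, Cebpb, Cebpd, Il6, Cxcl1, Ccl2 and C3 are genes that cells switch on when NF-κB or cytokine receptors are engaged, and their mRNA was followed in chondrocytes of the mouse spine. They are 10 of the 32286 genes listed in each matrix and were chosen by symbol. The cells were 1286 chondrocytes among 1757 cells that passed the filters (UMIs above 750, detected genes above 500, mitochondrial share under 7%), where a UMI is a unique molecular identifier and stands for 1 captured RNA molecule. Chondrocytes were defined by at least 1 UMI of Sox9 and at least 3 UMIs of Acan. They were set against 194 bone/stroma cells (at most 2 UMIs of Acan and at least 1 of Runx2) and 87 blood cells (at least 1 UMI of Ptprc). The remaining 223 cells met none of these rules.

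Single-cell RNA-sequencing had been performed on tdTom+ cells sorted from the lower thoracic and upper lumbar vertebrae of Prss56Cre mice, with 1 library for each of 4 conditions. Cells that stained for CD11b, CD31 or CD45 and dead cells had been discarded in the sort, after digestion of the tissue with collagenase and dispase at 37 °C. Control mice were Prss56Cre/+;R26tdTom/tdTom;Nf1+/+ and carried 1 Cre allele. Mutant mice were Prss56Cre/Cre;R26tdTom/tdTom;Nf1fl/fl and carried 2 Cre alleles, so that loss of Nf1 and the second Cre allele cannot be told apart. Both genotypes were sampled at 3 months and at 12–16 months of age. All mice carried the tdTomato reporter, which marks cells that express Prss56 or descend from cells that did. The sort therefore covers that lineage and not all chondrocytes of the vertebrae.

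NF-κB is a family of transcription factors held in the cytoplasm by inhibitory IκB proteins. Inflammatory cytokines such as TNF and IL-1 lead to the breakdown of IκBα, and NF-κB then enters the nucleus. IL-6 and related cytokines act through JAK kinases and STAT3. Both routes switch on their own inhibitors, the C/EBP transcription factors that work with them, secreted cytokines and acute-phase proteins. In cartilage, these signals are known for lowering matrix synthesis and raising matrix-degrading enzymes.

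Proximal promoters of 7 of the 10 genes (Lcn2, Nfkbia, Socs3, Cebpb, Il6, Cxcl1 and C3) were read from the RefSeq annotation of GRCm38.p6, as the 250 bases before the annotated start. Nfkbiz, Cebpd and Ccl2 had no entry in that table. Letter patterns of 3 factor families were searched on both strands. They were GGG, any 3 bases and TTCC for NF-κB (κB), TTGCNNAA for C/EBP and TTCNNNGAA for STAT factors. A κB match was present in Nfkbia, Il6 and Cxcl1, against 4.65% of 32851 promoters of the same length. A C/EBP match was present in Il6, Lcn2 and C3, against 9.56%, and a STAT match in Socs3, against 7.02%. Cebpb had no match to any of the patterns in this window. The windows of Lcn2 and Socs3 lie inside the gene bodies of the GENCODE annotation and are not printed. Their matches were TTGCTCAA, starting 216 bases before the Lcn2 start, and TTCTTAGAA, starting 154 bases before the Socs3 start. The windows below are shown because they carry the κB and C/EBP matches of an inhibitor that was abundant in chondrocytes (Nfkbia), a chemokine that few cells expressed (Cxcl1), a cytokine that was almost absent (Il6) and an acute-phase gene (C3). They run 5′ to 3′ on the strand of the gene, with the matches in capitals. Adjoining capitals in Cxcl1 hold a pair of overlapping κB matches, and that window was ended at base 90891240, before the GENCODE start of the gene.
Nfkbia, chr12:55492648-55492897, minus strand, κB: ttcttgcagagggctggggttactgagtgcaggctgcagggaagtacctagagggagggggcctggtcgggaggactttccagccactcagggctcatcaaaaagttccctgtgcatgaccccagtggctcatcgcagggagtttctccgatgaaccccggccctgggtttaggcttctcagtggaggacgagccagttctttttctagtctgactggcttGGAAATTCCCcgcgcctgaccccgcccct
Cxcl1, chr5:90890995-90891240, plus strand, κB: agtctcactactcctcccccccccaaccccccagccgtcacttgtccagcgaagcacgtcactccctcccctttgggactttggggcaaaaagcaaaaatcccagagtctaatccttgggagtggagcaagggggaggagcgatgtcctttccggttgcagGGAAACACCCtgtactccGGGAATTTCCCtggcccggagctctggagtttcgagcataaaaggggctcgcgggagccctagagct
Il6, chr5:30012864-30013113, plus strand, C/EBP then κB: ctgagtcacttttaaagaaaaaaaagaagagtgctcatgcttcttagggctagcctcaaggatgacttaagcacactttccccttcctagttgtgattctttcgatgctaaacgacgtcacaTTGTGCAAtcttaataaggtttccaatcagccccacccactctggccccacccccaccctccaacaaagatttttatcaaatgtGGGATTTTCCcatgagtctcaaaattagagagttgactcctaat
C3, chr17:57228137-57228386, minus strand, C/EBP: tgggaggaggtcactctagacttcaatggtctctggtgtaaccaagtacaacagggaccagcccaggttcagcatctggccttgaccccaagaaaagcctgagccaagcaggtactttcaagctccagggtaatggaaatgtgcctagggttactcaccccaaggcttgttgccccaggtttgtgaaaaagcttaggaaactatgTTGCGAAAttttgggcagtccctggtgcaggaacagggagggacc

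The κB match of Nfkbia started 29 bases before the start of the gene. The Il6 window held its C/EBP match at 128 bases and its κB match at 44 bases before the start, and the 3 κB matches of Cxcl1 lay at 89, 71 and 70 bases. The C/EBP match of C3 lay at 45 bases. These are descriptions of letters in the reference, and binding of any factor was not measured here.

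The 4 libraries were the 3-month control, the 3-month mutant, the 12–16-month control and the 12–16-month mutant, and values are given in this order throughout. Passing cells held 2154537 to 9429264 UMIs per library, and no barcode was shared between libraries. Chondrocytes numbered 562, 377, 89 and 258, with a median of 12638.5, 13677, 11655 and 8670.5 UMIs per cell. Nf1 mRNA stood at 131, 150, 147 and 125 UMIs per 1000000 UMIs (CPM) over all passing cells. At 3 months the value of the library labelled mutant was thus above that of its control, and "mutant" and "control" below name the labels. The floxed part of Nf1 need not be read by 3′ tags. Chondrocytes carried their markers, since 9 of 11 cartilage genes such as Col2a1 and Col9a1 were higher than in bone/stroma cells and none was lower. The bone/stroma class was mixed. Of its 45, 39, 27 and 83 cells, 1, 23, 2 and 7 also held Ptprc, and 10 neutrophil and myeloid genes such as S100a8 and S100a9 summed to 89.9, 18293, 1858 and 7535 CPM there, against 1.57 to 55.5 CPM in chondrocytes. Blood cells numbered 13, 42, 2 and 30, which includes those cells, and no chondrocyte held Ptprc. The class tests of the 10 genes are therefore also given without cells that belong to both. So are their bone/stroma levels below, and the blood levels of Nfkbiz and Cebpb, where this moved them by over 1.5 times. Counts and calls of the marker genes and gene lists keep these cells.

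The inhibitors Nfkbia, Nfkbiz and Socs3 were detected in 49.6% to 89.3% of the chondrocytes of a library, and each was higher there than in bone/stroma cells of every library. Nfkbia encodes IκBα, which takes NF-κB out of the nucleus. Its level in chondrocytes was 895, 299.7, 573 and 388 CPM, with exact 95% Poisson intervals of 875 to 916, 286 to 314, 533 to 616 and 365 to 411, which cover counting error only. In bone/stroma cells it was 288, 151, 74.1 and 79.5 CPM. The interval of the highest of these (251 to 328) overlapped with that of the lowest chondrocyte level. Blood cells had 178, 154, 112 and 123 CPM of Nfkbia. Cells that met none of the class rules had 671, 427, 256 and 354 CPM. They were thus above chondrocytes in the 3-month mutant and below them in the other libraries.

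Nfkbiz encodes IκBζ, a nuclear IκB protein that tunes a subset of NF-κB targets. Its level in chondrocytes was 362, 213, 324 and 308 CPM. In bone/stroma cells it was 142, 68.4, 17.8 and 52.6 CPM, without overlap between the classes. Blood cells of the mutant libraries had 100.1 and 119 CPM, whereas none of the 13 and 2 blood cells of the control libraries held a UMI. Without cells that were also bone/stroma, the mutant values were 199 (139 to 277) and 125 CPM. The first of these intervals included the chondrocyte level of that library.

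Socs3 encodes the suppressor of cytokine signaling that blocks JAKs bound to the IL-6 receptor chain gp130. It stood at 1095, 369.9, 741 and 457 CPM in chondrocytes, and the intervals of these levels did not overlap. In bone/stroma cells its level was 218, 25.5, 30.2 and 68.1 CPM. The value of the 3-month mutant rested on the cells with Ptprc, and without them it was 89.98 CPM on 17 UMIs, so that the chondrocyte level there was 4.11 times the bone/stroma level (2.56 to 7.07). Blood cells were near 0, with 1, 9, 2 and 1 UMIs of Socs3 in all. A Socs3 UMI was found in 87.0%, 49.6%, 64.0% and 65.1% of chondrocytes, and in 14.3% and 3.33% of the blood cells of the mutant libraries, whose median depth was 12018.5 and 8655 UMIs. With every cell thinned to 2000 UMIs, these shares were 67.3%, 32.2%, 44.5% and 42.9% of chondrocytes and 2.06% and 0.493% of the blood cells. In both mutant libraries the share in chondrocytes lay far above that in blood cells of like depth.

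Cebpb and Cebpd encode C/EBPβ and C/EBPδ, which drive acute-phase genes downstream of IL-1 and IL-6. Cebpb was at 817, 311, 718 and 636 CPM in chondrocytes. Bone/stroma cells had 322, 176, 118 and 139 CPM of Cebpb. The bone/stroma level in the 3-month control thus lay just above the chondrocyte level of the 3-month mutant, and within each library chondrocytes were higher. Blood cells had 289 CPM of Cebpb in the 3-month mutant and 269 CPM in the 12–16-month mutant. Without cells that were also bone/stroma, blood cells of the 3-month mutant had 711 CPM (592 to 847), above chondrocytes there. Those of the 12–16-month mutant had 309 CPM. Cebpd varied least among libraries, with 389.9, 351, 449 and 315 CPM in chondrocytes. In bone/stroma cells Cebpd was at 158, 101, 63.1 and 130.0 CPM.

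The secreted cytokines were a different case, because few or no chondrocytes held their mRNA. Cxcl1 encodes a chemokine that draws neutrophils. It had 518, 58, 9 and 105 UMIs in chondrocytes, which is 62.7, 9.92, 6.88 and 36.7 CPM, from 68, 16, 4 and 21 cells. In the 3-month control 13 chondrocytes with 10 or more UMIs were present and the highest had 101. Bone/stroma cells held 46, 0, 8 and 2 UMIs of Cxcl1, which is 58.3, 0, 11.0 and 2.06 CPM, and blood cells held none. In both control libraries the bone/stroma interval overlapped with that of chondrocytes, and the 46 UMIs came from 2 cells. Il6 encodes interleukin-6 and Ccl2 a chemokine for monocytes. Both were almost absent from chondrocytes, with 1 UMI of Il6 and 2 of Ccl2 in the 3-month control and 0 in the other libraries. A count of 0 allows up to 0.513, 2.29 and 1.05 CPM in those 3 libraries, as 3 counts of the total. Outside chondrocytes, 10 UMIs of Il6 and 11 of Ccl2 were found in bone/stroma cells of the 3-month mutant, and 5 and 20 UMIs of Ccl2 in those of the 12–16-month libraries. None of the Il6 UMIs and none of the Ccl2 UMIs of the 3-month mutant remained when bone/stroma cells with Ptprc were left out, whereas the 5 and 20 UMIs of the 12–16-month libraries remained.

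Lcn2 encodes lipocalin-2, which binds bacterial siderophores and is also a granule protein of neutrophils. It was at 19.5, 66.7, 198 and 179.9 CPM in chondrocytes, where the intervals of the 12–16-month libraries (175 to 224 and 165 to 196) overlapped and those of the 3-month libraries (16.6 to 22.7 and 60.3 to 73.7) did not. The values came from few cells, namely 74, 39, 32 and 70, and the tenth of chondrocytes with the most Lcn2 held 76.8% to 99.7% of its UMIs. The highest cell had 7, 95, 43 and 132 UMIs. Bone/stroma cells held 0, 128, 20 and 102 UMIs of Lcn2, of which 0, 0, 2 and 1 were in cells without Ptprc. Blood cells had 0, 161, 18 and 936 UMIs, and the 936 UMIs came from 10 cells of the 12–16-month mutant.

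Chondrocytes and blood cells differed in what accompanied Lcn2. Chondrocytes held 80.5, 35.5, 17.3 and 21.5 UMIs of Lcn2 per UMI of S100a8 and S100a9, which are abundant in neutrophils. In blood cells the same quotient was 0.0187, 0.0152 and 0.0331 in the 3 libraries with any Lcn2. The chondrocytes with Lcn2 had 3.23, 10.5, 10.1 and 6.66 times the C3 level of those without it, and every 95% interval of these ratios lay above 2. In the mutant libraries Nfkbia, Nfkbiz, Socs3, Cebpb, Cebpd and Cxcl1 were also higher in them. These ratios were 2.16 to 4.68 at 3 months and 2.50 to 4.36 at 12–16 months. In the control libraries they were 0.880 to 1.51 and 0.235 to 1.55. The chondrocytes with Lcn2 had a median of 11812, 9736, 11820.5 and 7618 UMIs per cell, against 12729.5, 14080, 11358 and 9281.5 without.

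C3 encodes the central complement component and is an acute-phase gene. Its level in chondrocytes was 34.6, 25.8, 195 and 118 CPM, so that both 12–16-month libraries were above both 3-month libraries. In bone/stroma cells C3 was at 46.9, 98.6, 174 and 176 CPM, which overlapped with the chondrocyte range, and without the cells with Ptprc the 3-month mutant was at 153 CPM. A C3 UMI was found in 17.6%, 11.9%, 38.2% and 24.8% of chondrocytes, and in 5.24%, 4.83%, 20.0% and 14.6% after thinning to 2000 UMIs.

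**Figure D1:**
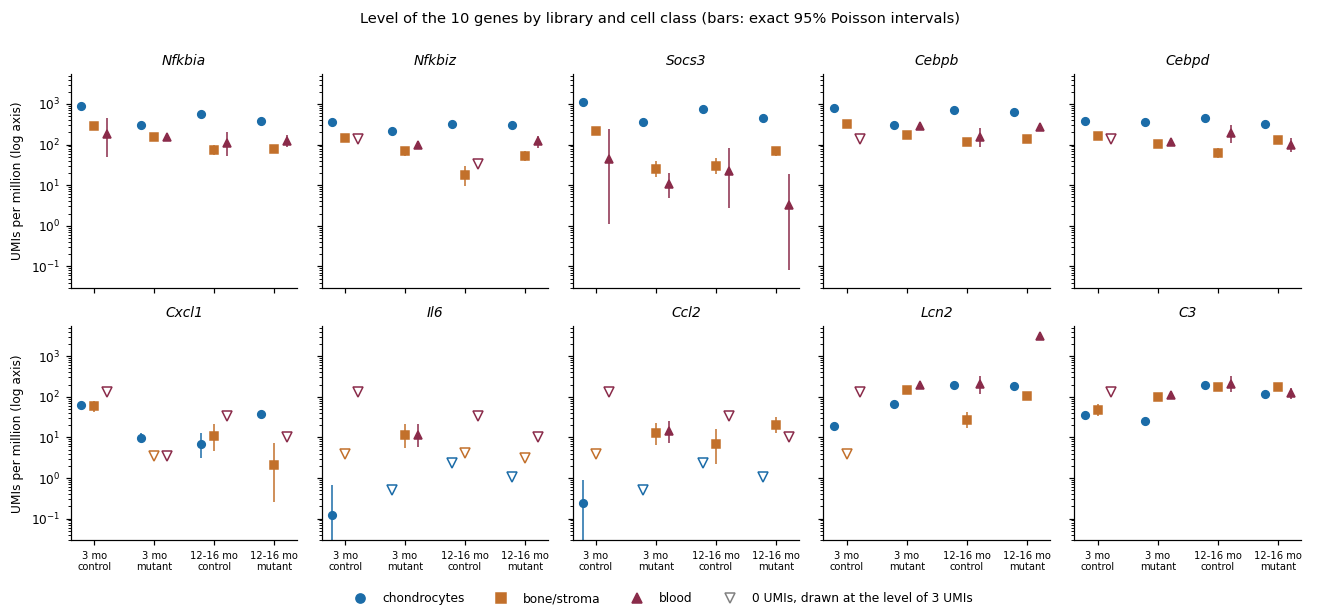
Level of each of the 10 genes in CPM on a log axis, by library and cell class, with exact 95% Poisson intervals as bars and open triangles at the level of 3 UMIs where a class held none. Nfkbia, Nfkbiz, Socs3, Cebpb and Cebpd were higher in chondrocytes than in bone/stroma cells of each library. C3 was lower in chondrocytes of both mutant libraries and overlapped in the control libraries. Il6 and Ccl2 were almost absent from chondrocytes.

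Summed over the 10 genes, chondrocytes had 3676, 1647, 3205 and 2439.7 CPM and bone/stroma cells 1233, 794, 523 and 774 CPM. The class difference was tested across all genes on UMIs summed per library and class, with the library as a block and the 4 libraries as replicates (edgeR). Of 9798 genes tested, 13.4% were called higher in chondrocytes than in bone/stroma cells and 11.0% lower at an adjusted p under 0.05. Of the 10 genes, 8 had enough counts for the test and 5 of them were called higher. Socs3 was higher by 3.44 ± 0.42 (SE) on the log2 scale (adjusted p = 0.0014, edgeR quasi-likelihood test with Benjamini-Hochberg adjustment). Nfkbiz was higher by 2.45 ± 0.45 (adjusted p = 0.0078), Nfkbia by 2.06 ± 0.34 (adjusted p = 0.0049), Cebpd by 1.89 ± 0.30 (adjusted p = 0.0040) and Cebpb by 1.84 ± 0.33 (adjusted p = 0.0075) in the same edgeR test. Each of these 5 was higher in 4 of 4 libraries. Bone/stroma cells held Runx2 by their rule, while chondrocytes were taken with or without it. The part of Runx2 in the class difference was not tested, and levels of chondrocytes with Runx2 are given below. The differences of Lcn2 (log2 1.27, adjusted p = 0.27), Cxcl1 (log2 1.30, adjusted p = 0.30) and C3 (log2 -0.58, adjusted p = 0.24) did not pass the edgeR test. The median log2 difference was 1.86 over the 8 genes and -0.0039 over all genes tested.

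Lcn2 changed its call when the bone/stroma cells with Ptprc were left out. It was then higher in chondrocytes by 6.72 on the log2 scale (adjusted p = 2.3e-06, edgeR), 6 of the 8 genes were called higher, and 18.1% of all genes were. The bone/stroma cells left held 0, 0, 2 and 1 UMIs of Lcn2. It thus had enough counts through chondrocytes alone, and its call, the added 1 of the 6, rests on counts near 0. At 3 months, where those bone/stroma cells held 0 UMIs, the ratio computed with 3 UMIs in place of 0 was 5.11 (1.72 to 25.1) in the control. In the 3-month mutant it was 4.20 (1.43 to 20.5). At 12–16 months the ratio was 63.3 (exact conditional binomial 95% interval 17.4 to 526) in the control and 160.2 (28.6 to 6340) in the mutant, on 2 and 1 UMIs. Leaving out the library of the 12–16-month control ended the call of Cebpb (adjusted p = 0.051, edgeR), and leaving out that of the 3-month mutant gave Lcn2 a log2 difference of 1.94 (adjusted p = 0.016, edgeR).

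Against blood cells, 3 libraries could be used, since the 12–16-month control had 2 blood cells. This comparison shares its chondrocyte sums with the one above. Of 10876 genes, 21.7% were called higher in chondrocytes and 12.6% lower. Of the 8 genes tested, 6 were called higher and Lcn2 lower. Socs3 was higher by 5.92 ± 0.79 on the log2 scale (adjusted p = 1.1e-12, edgeR). Blood cells of the 3 libraries held 1, 9 and 1 UMIs of it, so the size of this difference rests on counts near 0. The ratio was 24.6 (4.42 to 972) in the 3-month control, 34.9 (18.3 to 76.4) in the 3-month mutant and 138 (24.7 to 5451) in the 12–16-month mutant. Nfkbia (log2 2.00, adjusted p = 0.0038), Nfkbiz (log2 1.93, adjusted p = 0.0021) and Cebpd (log2 2.31, adjusted p = 0.00033) were also higher by edgeR. Cxcl1 was among the 6 (adjusted p = 9.5e-07, edgeR). Blood cells held 0 UMIs of it, so it had enough counts through chondrocytes alone, and its call adds no support. With 3 UMIs in place of 0, the ratio was 2.81 (0.914 to 14.0) in the 3-month mutant, an interval that includes 1. In the 12–16-month mutant it was 3.69 (1.23 to 18.2). The 22477 UMIs of blood cells in the 3-month control allow no bound above 1. Lcn2 was lower by 1.99 ± 0.76 (adjusted p = 0.027, edgeR), and this call was lost without the 3-month mutant (adjusted p = 0.37) or the 12–16-month mutant (adjusted p = 0.78). Cebpb (log2 1.76, adjusted p = 0.021, edgeR) and Lcn2 lost their calls when cells of both classes were left out (adjusted p = 0.23 and 0.051, edgeR), and under DESeq2 (adjusted p = 0.083 and 0.37). Without those cells, 5 of the 8 genes were higher, Cxcl1 again among them, against 17.2% of all genes, and 0 lower, against 8.17%. Nfkbia (adjusted p = 0.10 and 0.20), Nfkbiz (0.068 and 0.088) and Cebpb (0.087 and 0.24) were not called by edgeR once the 3-month mutant or the 12–16-month mutant was left out.

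Near the limit of the rule, 69 cells with 3 to 5 UMIs of Acan had 1418 CPM of Socs3 and 1197 CPM of Nfkbia, and 27 cells with Sox9 and 1 to 2 UMIs of Acan had 908 and 853 CPM. Cebpb stood at 2401 and 1440.4 CPM in these cells.

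Within chondrocytes, the genes were found together in the same cells more often than independent detection would give. Cells were thinned to 2000 UMIs, so that depth does not differ between them, and the number of the 10 genes detected was averaged over all possible draws. A chondrocyte held 2.78, 1.74, 2.53 and 2.31 of the 10 genes on average. Bone/stroma cells held 1.33, 1.35, 0.754 and 1.06. At least 3 genes were detected in 56.5% (exact 95% binomial interval 52.2 to 60.6), 30.2% (25.7 to 35.2), 49.8% (38.4 to 60.5) and 41.4% (35.4 to 47.8) of chondrocytes, and in 18.8%, 20.2%, 7.50% and 10.6% of bone/stroma cells. Among bone/stroma cells without Ptprc this share was 19.2%, 11.3%, 5.31% and 9.62%.

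The spread of this number was wider than under independence. No gene was detected in 10.4%, 30.8%, 20.9% and 19.6% of chondrocytes, against 1.80%, 12.5%, 3.89% and 5.52% if the genes were independent at the same detection rates. At the other end, 5 or more genes were detected in 17.0%, 8.13%, 20.3% and 14.3%, against 6.35%, 0.862%, 5.79% and 3.93%. The variance of the number was 2.05, 2.33, 2.41 and 2.33 times that of independent genes. Other genes of these cells behaved likewise, since the quotient was 1.88 to 3.05 for 10 cartilage markers and 3.08 to 4.36 for 10 immediate early genes. The cells of a library share its preparation, and they are no replicates of a condition.

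**Figure D2:**
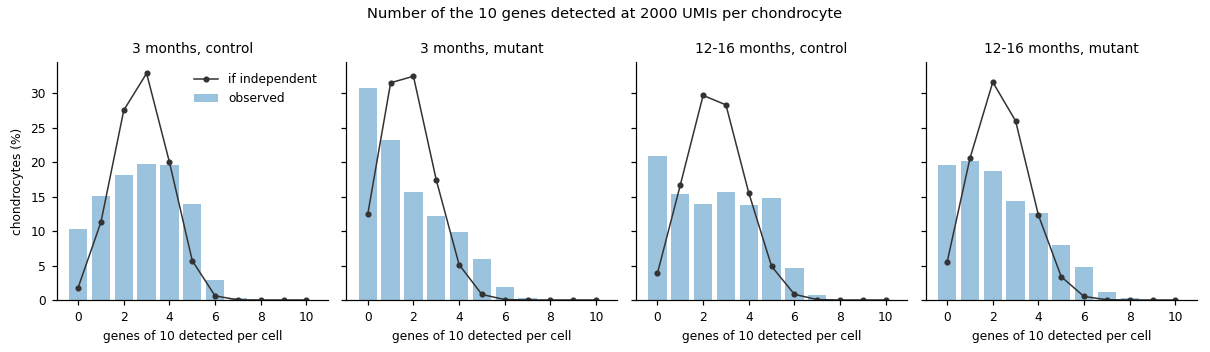
Share of chondrocytes in percent by the number of the 10 genes detected at 2000 UMIs per cell, observed (bars) and under independence (line), in the 4 libraries. Observed shares exceed the line at 0 and at 5 or more genes in each library.

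Pairs of genes could be compared for 28 of the 45 pairs, as Il6 and Ccl2 were in too few cells. For 21 of the 28 pairs, the share of chondrocytes with both genes was above the product of their single shares in all 4 libraries, and for 0 pairs it was below in all 4. The same count was not made for pairs of all genes, so it cannot be read as particular to this set. Lcn2 and C3, the acute-phase genes, had the highest median quotient of observed to independent share, with 2.67, 4.76, 2.13 and 2.31 in the libraries. Cxcl1 followed with the inhibitors, at 1.41, 1.79, 2.14 and 2.54 with Nfkbiz and at 1.45, 1.90, 1.57 and 2.33 with Nfkbia. In the 12–16-month mutant the pair with Nfkbiz was above Lcn2 and C3, while the pair with Nfkbia was level with them (2.33 against 2.31). In the 12–16-month control, Cxcl1 had 9 UMIs in 4 chondrocytes, too few to rank its pairs. Its quotients there ran from 0.0727 with Lcn2 to 2.14 with Nfkbiz, against 2.13 for Lcn2 and C3. Pairs among Nfkbia, Nfkbiz, Socs3, Cebpb and Cebpd lay between 1.20 and 1.79. C3 had a median of 1.03 with Nfkbia, 1.01 with Socs3 and 0.837 with Nfkbiz over the 4 libraries, but in the 3-month mutant it was above 1 with each of them, at 1.43, 1.68 and 1.17. With Cebpd and Cebpb, C3 was above 1 in all 4 libraries, at 1.24 to 1.77 and 1.11 to 1.78.

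**Figure D3:**
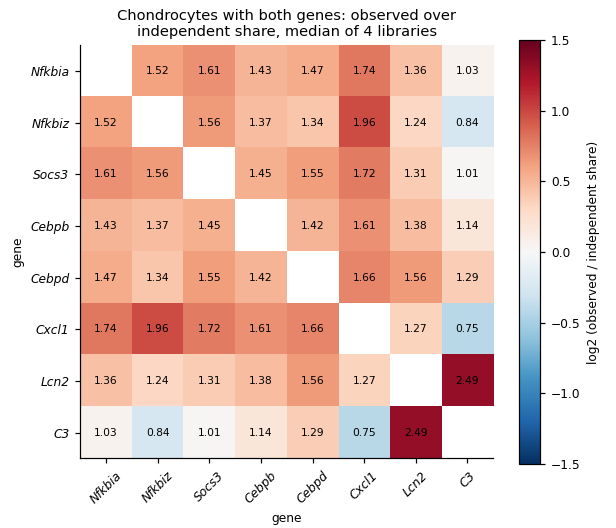
Observed share of chondrocytes with both genes divided by the share under independence, as the median of 4 libraries at 2000 UMIs per cell, for 8 genes (colour on the log2 scale). Lcn2 with C3 has the highest value at 2.49, and Nfkbiz with C3 and Cxcl1 with C3 are below 1. The highest value a pair can reach is lower for genes detected in more cells.

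Chondrocytes differed by Runx2, which encodes a transcription factor of hypertrophic chondrocytes and osteoblasts. At least 1 UMI of Runx2 was found in 16.7%, 51.2%, 27.0% and 31.8% of chondrocytes. Summed over the 10 genes, chondrocytes with Runx2 had 1592, 586, 1624 and 1139 CPM, against 4280.2, 3539.9, 4592 and 3726 CPM in those without. The level with Runx2 was thus 0.372, 0.166, 0.354 and 0.306 of that without. Bone/stroma cells, which all held Runx2, had 1233, 794, 523 and 774 CPM. Chondrocytes with Runx2 lay below them in the 3-month mutant and above them elsewhere. In the 3-month mutant, Nfkbia (87.5 against 151 CPM) and Cebpb (84.1 against 176 CPM) were below bone/stroma cells, while Nfkbiz, Socs3 and Cebpd were above. Without the bone/stroma cells that held Ptprc, Nfkbiz was still above (167 against 47.6 CPM). The bone/stroma intervals of Socs3 (52.4 to 144) and Cebpd (68.8 to 170) then included the levels of chondrocytes with Runx2, 97.2 and 136 CPM. Among chondrocytes, Nfkbia, Nfkbiz, Socs3, Cebpb, Cebpd and Lcn2 were lower in those with Runx2 in all 4 libraries, with every interval of the ratio below 1. All of these but Nfkbiz, whose highest ratio was 0.733, were past 1.5-fold lower in each library, at 0.497 or less. Past 1.5-fold lower were 14.6%, 17.3%, 18.7% and 15.7% of all genes in this comparison, and 21.3%, 32.8%, 22.9% and 28.1% were past 1.5-fold higher, among them 0 of the 8 genes. Socs3 ranged from 0.113 to 0.423 of the level without Runx2, and Nfkbiz from 0.440 to 0.733.

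Cxcl1 and C3 varied in this comparison. Cxcl1 was lower with Runx2 in 3 of 4 libraries, and in the 12–16-month control it had 5 UMIs with Runx2 and 4 without. C3 was 0.767 and 0.0397 of the level without Runx2 at 3 months and 1.28 and 0.0773 at 12–16 months. Of the 135 UMIs of C3 in the chondrocytes with Runx2 of the 12–16-month control, 87 were in 1 cell. Cells with Runx2 were deeper, with medians of 17649, 17832, 25178 and 15820.5 UMIs against 11984, 10296, 9666 and 7092. At a fixed 2000 UMIs, at least 3 genes were still detected in 25.5%, 7.80%, 22.5% and 20.4% of those with Runx2, against 62.7%, 53.8%, 60.5% and 51.5% of those without, a split added after the data were seen.

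**Figure D4:**
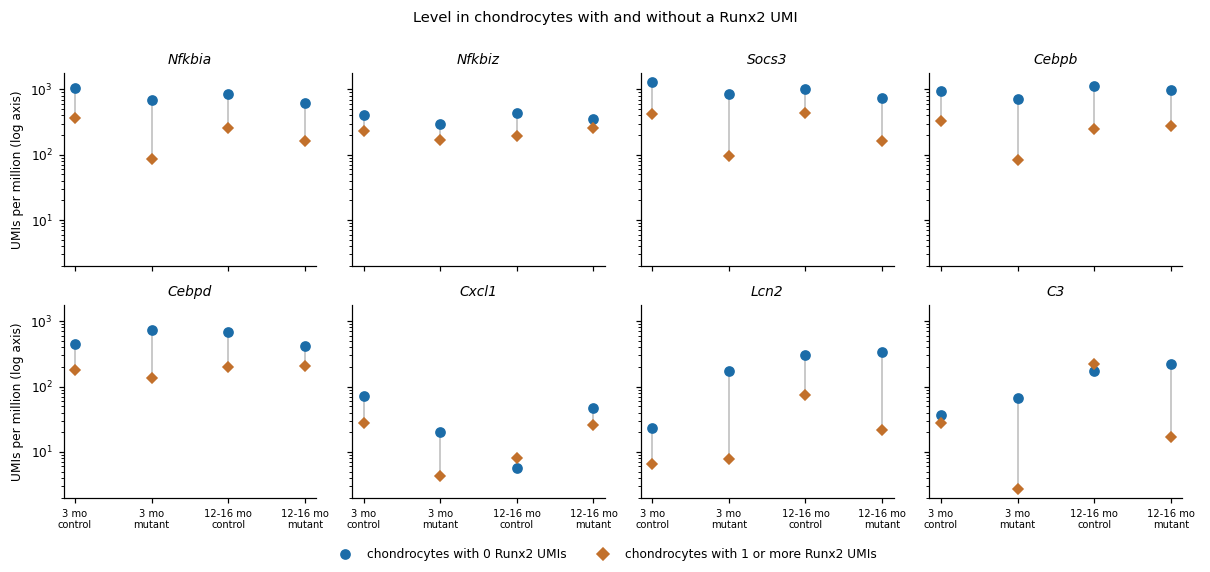
Level of 8 genes in CPM (log axis) in chondrocytes with 0 UMIs of Runx2 (circles) and with 1 or more (diamonds), by library. The diamond lies below the circle for each gene and library except Cxcl1 and C3 in the 12–16-month control.

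Mutant and control libraries were then compared within each age. With 1 library per condition these ratios have no replicate check and were not tested, and the intervals cover counting error only. At 3 months the 10 genes summed to 1647 CPM in the mutant and 3676 CPM in the control, a ratio of 0.448 (exact conditional binomial 95% interval 0.438 to 0.458). Of the 8 genes with at least 20 UMIs over both libraries, 5 were past 1.5-fold lower in the mutant, where 16.3% of 13273 genes were, and 1 was past 1.5-fold higher, where 22.9% were. Cxcl1 was at 0.158 of the control (0.118 to 0.208), Nfkbia at 0.335 (0.318 to 0.353), Socs3 at 0.338 (0.322 to 0.354), Cebpb at 0.380 (0.361 to 0.400) and Nfkbiz at 0.589 (0.550 to 0.629). Cebpd was at 0.900 and C3 at 0.746. Lcn2 was 3.42-fold higher (2.84 to 4.14), and 2.66-fold without the highest cell of each library.

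The 3-month difference was smaller among chondrocytes without Runx2. Among chondrocytes with 0 UMIs of Runx2, the sum of the 10 genes in the mutant was 0.827 of the control (0.806 to 0.849), with 3 of 8 genes past 1.5-fold lower, where 14.2% of 11779 genes were, and 3 higher, where 9.77% were. Nfkbia was at 0.648, Socs3 at 0.664 and Cebpb at 0.745, and Cebpd was 1.63-fold, C3 1.84-fold and Lcn2 7.40-fold higher. Among those with Runx2, the sum was at 0.368 (0.348 to 0.389) and 5 of 8 genes were past 1.5-fold lower, where 17.6% of 11615 genes were, with Socs3 at 0.230, and 0 higher, where 19.9% were. The share of chondrocytes with Runx2 was 16.7% in the control and 51.2% in the mutant, and its part in the pooled ratio was not tested otherwise.

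At 12–16 months the difference was smaller. The sum was 2439.7 CPM in the mutant and 3205 CPM in the control, a ratio of 0.761 (0.732 to 0.791). Socs3 was at 0.617 (0.568 to 0.672) and C3 at 0.606 (0.513 to 0.716) of the control, and these 2 of 8 genes were past 1.5-fold lower, where 11.7% of 11031 genes were. Cxcl1 was 5.33-fold higher (2.70 to 11.98), where 11.0% were past 1.5-fold higher, on 105 UMIs in the mutant and 9 in the control. Nfkbia was at 0.676, Cebpd at 0.701 and Cebpb at 0.887, and the intervals of Nfkbiz (0.847 to 1.07) and Lcn2 (0.781 to 1.06) included 1. C3 depended on the cells chosen, at 1.27 (1.02 to 1.58) among chondrocytes without Runx2 and 0.0763 among those with it, where 1 control cell held 87 of 135 UMIs. These 87 UMIs were part of 255 in all chondrocytes of the control, so the pooled ratio of C3 also rests in part on that cell.

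**Figure D5:**
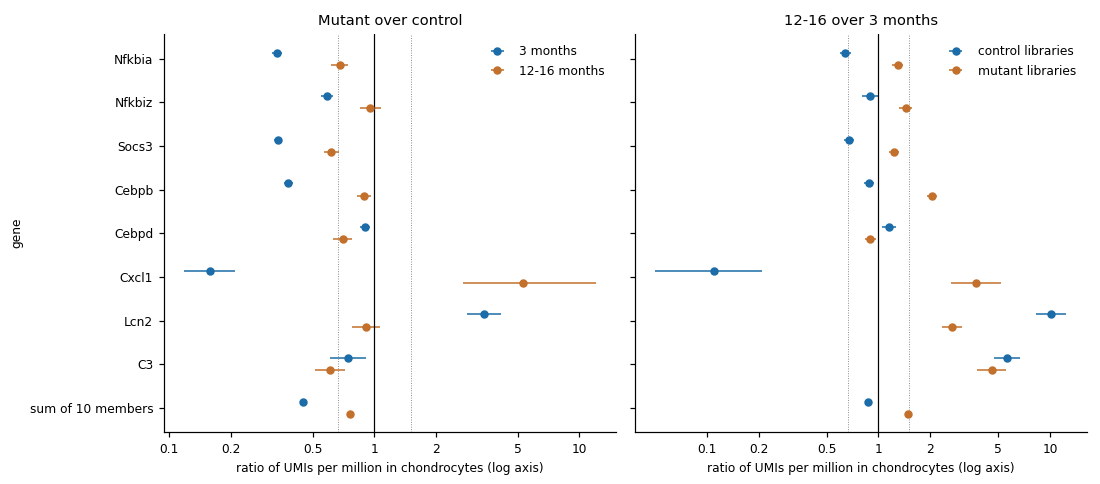
Ratio of CPM in chondrocytes (log axis) between the mutant and control libraries of an age (left) and between the ages of a label (right), for 8 genes and the sum of 10, with exact conditional 95% intervals and dotted lines at 1.5-fold. Cxcl1 lies on opposite sides of 1 at the 2 ages and in the 2 labels, and Lcn2 and C3 lie above 1.5 with age in both labels.

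Lcn2 and C3, the acute-phase genes of the set, were higher at 12–16 months than at 3 months in both labels. These ratios use the same 4 libraries as those above. From 3 to 12–16 months, Lcn2 was 10.2-fold higher (8.31 to 12.4) in the control and 2.70-fold in the mutant, and C3 was 5.63-fold (4.74 to 6.69) and 4.57-fold higher. In the control, these 2 of 8 genes were past 1.5-fold higher, where 17.9% of 12424 genes were, and Cxcl1 (0.110) and Nfkbia (0.640) were past 1.5-fold lower, where 11.2% were. Of the 255 UMIs of C3 in chondrocytes of the 12–16-month control, 87 were in 1 cell. In the mutant, Lcn2, C3, Cxcl1 (3.70) and Cebpb (2.05) were past 1.5-fold higher, where 13.3% of 12445 genes were, and 0 of 8 lower, where 15.2% were. The sum of the 10 genes was 0.872 (0.844 to 0.901) of the 3-month level in the control and 1.48 times that level in the mutant. In chondrocytes with Runx2 the sum was at 1.02 in the control and 1.94 in the mutant. Among chondrocytes without Runx2 the sums were close to the 3-month level, at 1.07 in the control and 1.05 in the mutant. There, 2 of 8 genes were past 1.5-fold higher in the control, where 18.6% of all genes were, and 1 lower, where 13.7% were. In the mutant, 3 of 8 were past 1.5-fold higher, where 12.4% were, and 1 lower, where 12.9% were.

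Other genes of the same routes were taken from lists, of which the counts follow, to be read against the 13.4% of all genes called higher in chondrocytes than in bone/stroma cells and the 11.0% called lower. All list calls against bone/stroma cells are given only with the cells that held Ptprc kept. Genes of blood cells can thus count as lower in chondrocytes. Of 13 tested NF-κB subunits and regulators such as Nfkb1, Rela and Tnfaip3, 0 were called in either direction against bone/stroma cells by edgeR, 1 had an unadjusted p under 0.05, and 0 were called by DESeq2. Their median log2 difference was 0.19. Of 17 cytokine receptor and JAK-STAT genes tested, 2 were higher in chondrocytes, a share near that of all genes, and 6 lower. Il6ra, the ligand-binding chain of the IL-6 receptor, was higher by log2 2.98 (adjusted p = 0.0061, edgeR) and Socs1 by 1.28 (adjusted p = 0.036, edgeR). The TNF receptor gene Tnfrsf1b (log2 -5.62, adjusted p = 0.00025), the LIF receptor gene Lifr (log2 -3.52, adjusted p = 0.0012) and the interferon-γ receptor gene Ifngr1 (log2 -1.90, adjusted p = 0.0032) were lower by edgeR.

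Of the 14 other cytokines and chemokines, 1 could be tested. It was Csf1, the macrophage growth factor, which was lower in chondrocytes, at 14.2, 5.30, 8.41 and 8.73 CPM (log2 -4.67, adjusted p = 0.00012, edgeR). Of the 14 genes, 6 had no UMI in chondrocytes of the 3-month control and 10 had none in each of the other libraries. Of 12 acute-phase and inflammation effectors tested, 5 were higher and 3 lower. The metallothionein gene Mt2 (log2 5.69, adjusted p = 0.00026), the cartilage glycoprotein gene Chil1 (log2 5.07, adjusted p = 0.0016) and the adhesion receptor gene Icam1 (log2 2.90, adjusted p = 0.00098) were higher by edgeR, and haptoglobin Hp (log2 -8.41, adjusted p = 0.00012), Vcam1 (log2 -6.94, adjusted p = 0.00045) and ceruloplasmin Cp (log2 -0.94, adjusted p = 0.043) were lower by edgeR.

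Some list genes had mutant to control ratios past 1.5-fold in the same direction at both ages. Irf1, an interferon-regulated transcription factor, was at 0.303 and 0.449 of the control, Icam1 at 0.406 and 0.583, Socs1 at 0.526 and 0.429, the adaptor gene Myd88 at 0.453 and 0.526 and Serpina3n at 0.655 and 0.647. Steap4 was 2.33-fold and 2.92-fold higher, Ptgs2 5.27-fold and 2.06-fold, Il6ra 2.92-fold and 1.51-fold, Mt2 1.60-fold and 1.54-fold and the heat shock gene Hspa1b 1.71-fold and 1.74-fold. Of 9 glucocorticoid target genes, 6 were past 1.5-fold higher and 1 lower at 3 months, where 22.9% and 16.3% of all genes were. At 12–16 months 4 of 8 were higher and 0 lower, where 11.0% and 11.7% of all genes were. Fkbp5 was 19.1-fold higher at 3 months and 2.91-fold at 12–16 months, Zbtb16 6.69-fold and 1.81-fold and Tsc22d3 2.18-fold and 2.21-fold. Serpina3n, an acute-phase protease inhibitor, was at 52.5, 34.4, 622 and 402 CPM. Of 15 acute-phase and inflammation effectors measured in the control, 7 were past 1.5-fold higher at 12–16 than at 3 months, where 17.9% of all genes were. In that comparison 3 were lower, where 11.2% were. In the mutant 8 of 13 were higher, where 13.3% were, and 0 lower, where 15.2% were.

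The genes most like the set from cell to cell included immediate early genes, which are switched on within minutes of many stimuli. For each of 8086 genes detected in at least 10% of chondrocytes of every library, the Spearman correlation with the sum of the 10 genes was computed over the 562, 377, 89 and 258 chondrocytes of a library, each as the log of 1 plus UMIs per 10000. The 10 genes with the highest value of their lowest correlation were Junb, Fos, Jund, Atf3, Klf2, Hes1, Mcl1, Pnrc1, Egr1 and Dusp1. Of these, Junb, Fos, Jund, Atf3, Egr1 and Dusp1 were on the list of immediate early genes. Junb, a subunit of AP-1, had 0.82, 0.66, 0.80 and 0.72 and Dusp1, a phosphatase of MAP kinases, 0.54, 0.66, 0.59 and 0.57, whereas the median over all genes was -0.10 to -0.05. The cells of a library share their sort and preparation.

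The list of 14 immediate early and dissociation genes was followed beside the set. It summed to 26471, 16389.5, 19806 and 16031 CPM in chondrocytes of the 4 libraries. At 3 months, 8 of its 14 genes were past 1.5-fold lower in the mutant, where 16.3% of all genes were. In that comparison 1 was higher, where 22.9% were. At 12–16 months 0 were lower, where 11.7% were, and 1 higher, where 11.0% were. From 3 to 12–16 months, 6 were lower in the control, where 11.2% were, and 3 in the mutant, where 15.2% were. With age 0 were higher in either label. Between the mutant libraries the sum of the list was nearly level, while that of the 10 genes differed 1.48-fold. In all, 13 of its 14 genes were higher in chondrocytes than in bone/stroma cells, such as Dusp1 (log2 3.82, adjusted p = 0.00020, edgeR). Its correlation with the sum of the 10 genes was 0.83, 0.71, 0.82 and 0.72 over the chondrocytes of a library. In chondrocytes with Runx2 the list stood at 0.682, 0.476, 0.536 and 0.644 of its level in those without. Over the same cells, the sum of the 10 genes had a correlation of -0.34, -0.41, -0.29 and -0.37 with total UMIs, -0.43, -0.39, -0.21 and -0.43 with the mitochondrial share and -0.43, -0.52, -0.54 and -0.59 with the cartilage marker list. The part of tissue digestion, depth and cartilage RNA content in these results was not tested.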

How the data were processed

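Single-cell libraries had been made with the 10x Chromium 3′ chemistry and aligned to mm10 with Cell Ranger 8.0.0, as the matrix headers give it. The deposited values are whole-number UMI counts per gene and cell, not normalized, as the authors' pipeline wrote them. The study's removal of ambient RNA (SoupX) was not repeated, so free RNA is still in the counts, while its filters on cells were used.

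The members and lists were chosen with earlier results of these data known. Cells were grouped by the rules given at the start of the report, and the classes were kept as those rules give them. Levels are UMIs of a gene per 1000000 UMIs of the class (CPM), with exact 95% Poisson intervals, and levels were not compared between genes. Ratios between libraries carry exact conditional binomial intervals. With 1 library per condition, the ratios within an age or a label have no replicate check and were not tested. A fit of label and age together over the 4 libraries was not run. Genes with at least 20 UMIs over both libraries were counted past 1.5-fold. A count of 0 was bounded with 3 counts. Classes were compared on counts summed per library, with edgeR 4.0.16 (R 4.3.3), TMM factors, filterByExpr, the library as a block, the quasi-likelihood test and Benjamini-Hochberg adjustment at 0.05. The same libraries hold both classes, which is where the pairing comes from. The p-values measure how the class difference varied between libraries, which differ in age and label. These were 4 libraries against bone/stroma cells and 3 against blood cells. The procedure was tested on simulated data. DESeq2 1.42.0 was an alternative.

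For detection, each cell was thinned to 2000 UMIs by exact hypergeometric expectation, which left out 4, 1, 4 and 5 shallower chondrocytes. Doublets were called with Scrublet (scanpy 1.11.5, expected rate 6%), which marked 1, 3, 7 and 5 cells; they were kept in the main values. In the 3-month control this is under 0.5% of its cells, and the calls depended on the number of computing threads, so little rests on them. Intervals were computed with scipy 1.17.1 under Python 3.11.15.

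Named genes are the 10 members, up to 3 genes higher and 3 lower per list with the smallest adjusted p against bone/stroma cells, up to 3 each way past 1.5-fold in the same direction at both ages with intervals that leave out 1, and the 10 genes most like the sum of the members.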

Additional observations from a re-analysis of the deposited data

Results flagged for a closer look

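Cxcl1 had opposite directions at the 2 ages. It was at 0.158 of the control in the 3-month mutant and 5.33 times the control in the 12–16-month mutant, on 58 against 518 and 105 against 9 UMIs. With 1 library per condition, this difference was not tested, nor were those that follow.

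The change from 3 to 12–16 months went in opposite directions in the 2 labels for 6 genes and for the sum, with both counting intervals leaving out 1. The same count was not made over all genes, so it cannot be read as particular to this set. In the control, Nfkbia was at 0.640 of its 3-month level, Nfkbiz at 0.895, Socs3 at 0.677, Cebpb at 0.879 and Cxcl1 at 0.110. In the mutant the same genes were at 1.29, 1.45, 1.24, 2.05 and 3.70 times their 3-month level. Cebpd went the other way, at 1.15 in the control and 0.898 in the mutant. The sum of the 10 genes was at 0.872 in the control and 1.48 in the mutant. The share of chondrocytes with Runx2 went from 16.7% to 27.0% in the control and from 51.2% to 31.8% in the mutant, and most of these opposite directions were not seen among chondrocytes without Runx2. There, the control and the mutant went the same way for Nfkbia (0.811 and 0.899), Socs3 (0.786 and 0.875), Nfkbiz (1.10 and 1.20), Cebpb (1.18 and 1.38) and the sum (1.07 and 1.05). Cebpd (1.49 and 0.572) and Cxcl1 (0.0789 and 2.36) still went opposite ways there. Among chondrocytes with Runx2, opposite ways were seen for Nfkbia (0.700 and 1.86), Nfkbiz (0.824 and 1.56), Cebpb (0.752 and 3.33) and Cxcl1 (0.292 and 6.09). Socs3 (1.02 and 1.66), Cebpd (1.09 and 1.54) and the sum (1.02 and 1.94) went the same way. The control intervals of Nfkbiz, Socs3, Cebpd and the sum included 1 there. The part of the Runx2 share in these directions was not tested.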

How the results depend on the processing

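Class comparison. Against bone/stroma cells, genes lower in chondrocytes numbered 1076, and 1802 with no filter on low counts and 1645 without cells of both classes. Leaving out a library gave 870 to 1737 genes higher, 682 to 1607 lower and 4 to 6 of the 10 genes higher. Against blood cells, 1368 genes were lower, and 789 with DESeq2, 2182 without TMM factors, 2162 with no filter and 832 without cells of both classes. Leaving out a library gave 937 to 2824 higher, 523 to 2257 lower and 3 to 6 of the 10 genes higher. C3, at log2 -0.66, ranged from -0.97 to 0.47, the latter without the 3-month mutant. Without TMM factors the median of all genes was log2 -0.14 against bone/stroma and -0.22 against blood, where it was 0.18 with them. Higher genes numbered 1092 then against 1314, and 1933 against 2364. With no replicate block, 1399 higher and 1331 lower were called against bone/stroma cells and 2448 and 1466 against blood cells. The block is the library, and it changed no count by over 1.5 times.

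Libraries. The 3-month ratio of the sum was 0.417 with TMM factors, 0.493 with cells weighted equally, 0.827 without Runx2 (3 genes higher, 3 lower), 0.368 with Runx2 (0 higher) and 0.435 without the top 1% of cells. At 12–16 months it was 0.801 (TMM), 0.812 (equal weights, 1 gene lower), 0.843 (Acan at least 10, 1 lower), 0.811 (no Runx2, 1 lower), 0.701 (Runx2, 4 lower), 0.856 (no doublets, 1 lower) and 0.800 (no highest cells), and C3 was 1.27 without Runx2. The control's age ratio was 0.773 (TMM), 0.947 (equal weights, 1 lower), 0.758 (Acan at least 10), 1.07 (no Runx2, 1 lower), 1.02 (Runx2, 1 lower), 0.774 (no doublets) and 0.826 (no highest cells). The mutant's was 1.56 (equal weights), 1.40 (Acan at least 10), 1.05 (no Runx2, 1 lower) and 1.94 (Runx2, 8 higher). Of all genes, 16.0% (no Runx2) and 12.7% (Runx2) were past 1.5-fold lower in the mutant at 12–16 months. In the control's age ratio 13.7% (no Runx2) and 15.9% (Runx2) were lower. In the mutant's, 12.9% were lower without Runx2 and 16.6% higher with it. The 3-month shares of the Runx2 splits are given above, and under the other settings no share of all genes was counted.

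Co-detection. At least 3 genes were found in 37.1%, 18.0%, 33.0% and 26.4% of chondrocytes at 1000 UMIs and 77.3%, 46.2%, 68.0% and 60.3% at 5000 UMIs, in 62.7%, 53.8%, 60.5% and 51.5% without Runx2 and in 25.5%, 7.80%, 22.5% and 20.4% with it. The variance quotient stayed between 1.75 and 2.78 in 32 values. The cause of these shifts was not tested. The highest-cell and co-detection splits were chosen after seeing the data. Depth limits Il6 and Ccl2, and the 12–16-month control is limited by its 89 chondrocytes.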
